A study of Mus musculus with 18 samples.

Results

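The loci described here are those of 10 metabolic genes of the mouse, namely 5 of glycolysis (Slc2a1, Hk2, Pfkp, Ldha and Pkm), 4 of lipid metabolism (Cpt1a, Acaca, Fasn and Srebf1) and Myc, in a chromatin accessibility study of CD4 T cells. A region belonged to a gene when the authors' annotation named that gene as overlapping the region or as lying to its left or right. By this rule 52 of the 65983 listed regions belonged to the 10 genes, with 30 at the glycolysis genes, 20 at the lipid genes and 2 at Myc. The assay was ATAC-seq, which uses a transposase to cut and label DNA that is not packed away. The 18 samples formed 6 groups of 3, namely Id3 knockout (KO in the labels) and wild-type (WT) cells labelled Th1 at 24 h, Tcmp at 72 h and Teff at 72 h. All groups came from naive CD4 T cells that were activated through CD3 and CD28 on beads and kept in medium with IL2, IL12 and an antibody to IL4. The sources used here do not give how Id3 was deleted, the age of the mice, the meaning of Tcmp and Teff, or whether replicates were separate animals.

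Resting T cells burn fuel in mitochondria, and activated ones take up glucose quickly and turn much of it into lactate, a state in which Slc2a1, Hk2, Pfkp, Pkm and Ldha carry sugar from the cell surface to lactate. Myc is a transcription factor that is induced on activation and drives this change. Dividing effector cells also make fatty acids, through Acaca and Fasn under the control of Srebf1, while Cpt1a admits fatty acids into mitochondria for oxidation, a route often linked to memory cells. Id3, the deleted gene, blocks E proteins, transcription factors that bind the E-box CANNTG.

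The data were a single table of regions under 6 contrasts, with no value for any sample. The positions, class, width and number of windows of a region were identical in all 6 contrasts. They thus describe the authors' list of regions for the study as a whole and not the sites of any group. How windows were filtered is not known, so a site that is absent from the list was not shown to be closed. The authors' fold changes and p-values followed the order of the rows and were not read as belonging to a region. No difference between groups is therefore given for any of the 10 genes. The values below describe the list of regions and have no replicate error. Library depth is unknown. As a check of the cell label, all 6 CD4 T cell markers (Cd4, Cd3e, Cd3g, Cd2, Cd5 and Tbx21) had regions, 3 to 7 each, and all but Tbx21 had a region that the annotation puts at a promoter. The myeloid markers Lyz2, Csf1r and Cd14, the keratinocyte markers Krt5 and Krt14 and the hepatocyte marker Alb had 0. The hepatocyte marker Apoa1 had 1 region and the erythroid markers Gata1 and Klf1 had 2 each, of which 2 at Gata1 and 1 at Klf1 were at a promoter. The B cell markers Cd79a and Pax5 had 4 each. All 4 regions of Pax5 overlapped that gene, 1 of them at a promoter, and the 4 regions of Cd79a only flanked it.

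Promoter sequences of 9 of the 10 genes were in the RefSeq table used (build GRCm38.p6), with 13 annotated starts in all, since Ldha and Pkm had 2 starts each and Srebf1 had 3. The table had no window for Myc. The 250 bases before a start are shown 5′ to 3′ for the 4 starts that hold the E-box variants CACGTG or CAGCTG or CACCTG, the kinds bound by Myc and by E proteins, and for Hk2 and Fasn, which hold the most CCAAT boxes of their sets or share that place. Capitals mark these 3 forms, the CCAAT box and the GC box GGGCGG on either strand, so a CCAAT box may read ATTGG and a GC box CCGCCC. The regions below are on another build, GRCm39, so the positions of the sequences cannot be set against them.
Ldha, upstream start (chr7:46845554-46845803, plus strand): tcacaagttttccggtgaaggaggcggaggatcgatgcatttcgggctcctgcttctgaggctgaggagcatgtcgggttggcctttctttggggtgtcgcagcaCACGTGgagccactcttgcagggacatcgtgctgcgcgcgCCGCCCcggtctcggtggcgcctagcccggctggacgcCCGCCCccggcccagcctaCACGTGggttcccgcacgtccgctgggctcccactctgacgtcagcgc
Ldha, downstream start (chr7:46846832-46847081, plus strand): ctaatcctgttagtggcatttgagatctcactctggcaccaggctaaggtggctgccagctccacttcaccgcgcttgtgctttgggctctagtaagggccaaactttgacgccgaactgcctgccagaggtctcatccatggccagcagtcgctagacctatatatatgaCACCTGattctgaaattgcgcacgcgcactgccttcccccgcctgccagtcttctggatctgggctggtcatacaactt
Pkm, upstream start (chr9:59656326-59656575, plus strand): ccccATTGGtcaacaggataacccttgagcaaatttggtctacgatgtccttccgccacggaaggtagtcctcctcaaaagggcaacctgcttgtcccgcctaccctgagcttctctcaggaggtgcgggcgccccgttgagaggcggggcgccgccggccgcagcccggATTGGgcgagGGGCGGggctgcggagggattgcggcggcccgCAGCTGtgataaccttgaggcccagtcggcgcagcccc
Hk2 (chr6:82774455-82774704, minus strand): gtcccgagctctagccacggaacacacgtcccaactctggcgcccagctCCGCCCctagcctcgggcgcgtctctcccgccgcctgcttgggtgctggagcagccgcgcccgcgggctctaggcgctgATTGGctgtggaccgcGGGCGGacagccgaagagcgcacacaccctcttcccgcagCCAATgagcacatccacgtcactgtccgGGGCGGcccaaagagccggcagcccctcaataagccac
Cpt1a (chr19:3323051-3323300, plus strand): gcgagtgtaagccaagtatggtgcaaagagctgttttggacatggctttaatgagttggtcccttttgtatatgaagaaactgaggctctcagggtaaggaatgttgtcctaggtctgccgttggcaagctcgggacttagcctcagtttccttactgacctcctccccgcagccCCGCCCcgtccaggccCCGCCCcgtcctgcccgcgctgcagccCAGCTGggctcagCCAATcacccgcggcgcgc
Fasn (chr11:120824548-120824797, minus strand): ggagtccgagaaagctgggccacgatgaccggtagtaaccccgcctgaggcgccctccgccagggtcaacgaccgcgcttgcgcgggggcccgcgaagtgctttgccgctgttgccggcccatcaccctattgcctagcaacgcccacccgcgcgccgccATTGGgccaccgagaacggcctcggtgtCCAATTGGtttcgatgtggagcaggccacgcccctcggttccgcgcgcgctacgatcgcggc

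CACGTG, the E-box form preferred by Myc, was present in 1 of the 13 windows, before the upstream start of Ldha, the gene of the lactate dehydrogenase subunit that makes lactate from pyruvate. It stood there at 2 places, the nearer of them 48 bases before the start. Of all 32851 promoter windows of the same length in the table, 6.02% held CACGTG. The form CAGCTG, a sequence bound by E proteins, stood 38 bases before the upstream start of Pkm, the gene of muscle pyruvate kinase, and 32 bases before the start of Cpt1a. Thus 2 of 13 windows held it, beside 13% of all windows. CACCTG was in 1 window, before the downstream start of Ldha, beside 17.2% of all windows. CANNTG, which includes the other 3 E-box forms, was in 8 of 13 windows (66.2% of all windows), with 3 of 7 in the glycolysis set and 5 of 6 in the lipid set. The windows of Slc2a1, Hk2 and Pfkp, which act in sugar uptake and the early steps of glycolysis, held no CANNTG. The CCAAT box was in 7 of 13 windows (33.8% of all) and reached 3 places before Fasn, of which a pair overlaps in CCAATTGG, a stretch that also holds the window's CANNTG. The GC box GGGCGG was in 8 of 13 (32.7% of all), 5 of them in the glycolysis set, and reached 4 places before Pfkp and 3 before Hk2. The G and C content of the windows ranged from 39.2% at Acaca to 70.8% at the most downstream start of Srebf1, beside a median of 52.4% for all windows. Acaca had 1 window, although 3 of its regions were annotated at a promoter. Whether the window precedes any of these promoters was not determined, so its 39.2% need not describe an Acaca promoter. The next lowest content was 54.4%, at the downstream start of Ldha and the most upstream start of Srebf1. The Acaca window is also among the 5 lipid windows that held CANNTG. A match describes letters in a window, and whether any factor binds there was not measured.

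The classes of regions were read from the letters of the deposited annotation as promoter (P), exon (E) and intron (I), joined where a region fits several (PE, PI). A region of class P, PE or PI is said below to be of promoter class. A region with the letter P alone lay at most 3000 bases before an exon of its gene where a distance was listed. A region that named a gene only as a neighbour, up to 5000 bases away, is called flanking here. Of the 52 regions, 46 overlapped their gene or its promoter. The other 6 (11.5%) only flanked it, beside 18.4% of all pairs of a region and a gene with a symbol. Of these 6, 4 overlapped another gene, which was Pitrm1 beside Pfkp, Gramd2 beside Pkm, Tesmin beside Cpt1a and a gene without a symbol on the other strand beside Myc.

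**Figure D1:**
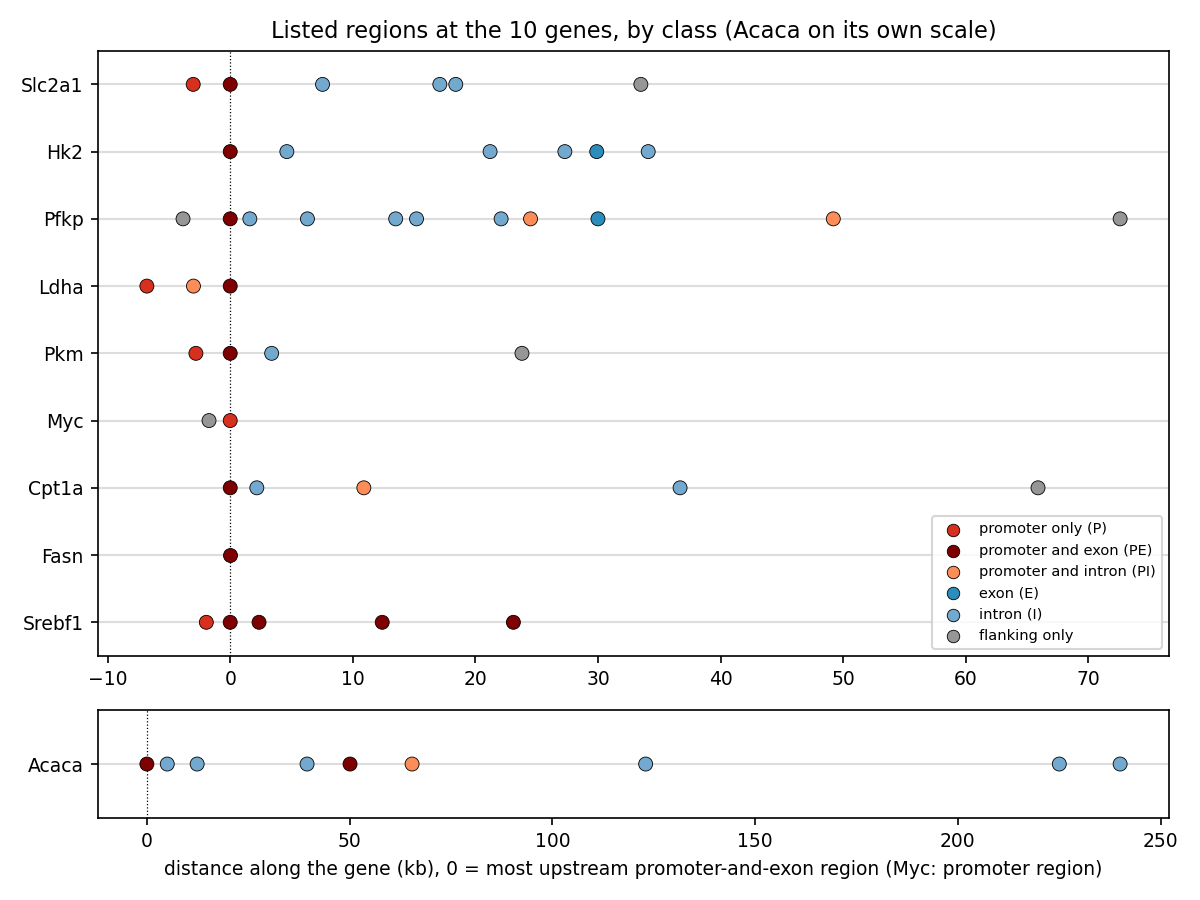
Each point is a listed region, placed by the distance in kb of its centre from the most upstream promoter-and-exon region of the gene (the promoter region for Myc), along the gene's direction, and coloured by class. Acaca, in the lower panel, has regions up to 240 kb downstream, Fasn has a single region, and the 5 regions of Srebf1 are all of promoter class.

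Among the genes of sugar uptake and phosphorylation, Slc2a1 and Hk2 had 6 regions each. Slc2a1 encodes the glucose transporter GLUT1. Its promoter and an exon lay in the widest of the 52 regions, 900 bases with 13 windows (chromosome 4, 118965701 to 118966600). Another promoter region of 650 bases lay at -3.02 kb, counted from the centre of the former along the gene. Downstream, 3 intron regions lay at 7.53, 17.1 and 18.4 kb, the last of which also overlapped a gene without a symbol. A flanking region lay 4171 bases past the nearest exon. Hk2 encodes hexokinase 2, which traps glucose in the cell as glucose 6-phosphate. It had a single promoter-class region (chromosome 6, 82751251 to 82751850), and its other 5 regions, 4 in introns and 1 over an exon, lay 4.62 to 34.1 kb downstream. Hk2 thus had the smallest share of promoter-class regions of the 5 glycolysis genes, and its intron and exon regions, 550 to 700 bases wide, were as wide as its promoter region of 600 bases or wider in all but 1 case.

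Pfkp encodes the platelet form of phosphofructokinase, the committed step of glycolysis. It had the most regions of the 10 genes, 11, which only 3.63% of the 19399 genes with a symbol and a region matched or passed. They comprised 5 intron regions, 1 exon region, 3 promoter-class regions and 2 flanking regions. The promoter and exon lay in a region 700 bases wide (chromosome 13, 6698551 to 6699250), and the 2 regions of class PI lay 24.5 and 49.2 kb further into the gene. The flanking region in Pitrm1 was 72.6 kb downstream of the promoter.

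Ldha and Pkm, at the end of the pathway, had 3 and 4 regions. All 3 regions of Ldha were of promoter class, in the classes P, PI and PE (chromosome 7, 46488101 to 46495450), and none was intron only. The upstream one ended 2199 bases before the next Ldha exon, and the middle one began 925 bases after an exon. No region was listed between them, so the exon in that gap was in no listed region. Pkm had a region over its promoter and exon (700 bases, chromosome 9, 59563301 to 59564000) and a promoter region of 600 bases at -2.8 kb from it. An intron region of 750 bases lay 3.38 kb downstream and was the widest intron region of the 52. The last region flanked the gene at 493 bases and overlapped Gramd2.

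Myc had only 2 listed regions, none of them over the gene itself. They were a promoter region 1740 bases before its nearest exon (chromosome 15, 61854951 to 61855500, 550 bases) and a flanking region 3440 bases before it (61853201 to 61853800, 600 bases). Both also overlapped a gene without a symbol on the opposite strand. Myc was the only one of the 10 genes with no region of class PE, a class that 68.8% of genes with a symbol and a region had. Within 100 kb of these regions lay 6 further regions that did not name Myc, the nearest 15051 bases away, beside a median of 11 such neighbours (quartiles 6 and 16) for all genes.

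The lipid genes had from 1 to 9 regions each. Acaca, whose product acetyl-CoA carboxylase makes the building block of fatty acids, had 9 regions spread over 240 kb. The promoter region, 800 bases wide with 11 windows, was shared with Tada2a, a gene on the opposite strand (chromosome 11, 84019951 to 84020750). Further regions of class PE and PI lay 50.1 and 65.4 kb into the gene, and the gene is known to be read from several promoters. Whether these 2 regions lie at such promoters was not tested. The other 6 were intron regions, of which 5 were 350 to 450 bases wide with 2 to 4 windows. The intron region at 39.5 kb also overlapped the gene Gm11437. The longest stretch without a listed region was 102 kb. The intron regions at 5.03 and 123 kb had fewer windows than their width would hold, and of the 52 regions these 2 alone did, whereas 97.8% of all listed regions were complete.

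Fasn encodes fatty acid synthase, which uses the product of Acaca. It had 1 region, over its promoter and an exon (chromosome 11, 120714751 to 120715300, 550 bases, 6 windows). Srebf1, the transcription factor that governs both enzymes, had 5 regions, and 5 of the 5 were of promoter class, 4 of them PE. Their centres lay at -1.95, 0, 2.35, 12.4 and 23.1 kb. The gene is known to have alternative starts for its 1a and 1c forms. Which of the 5 regions, if any, lie at these starts was not determined. The region at 23.1 kb had no further Srebf1 exon listed on its downstream side. Of the 3487 genes with 5 or more regions, 7 (0.201%) had only promoter-class regions. The most downstream of the 5 also overlapped the promoter of the microRNA gene Mir6921. Cpt1a encodes the transferase that brings long-chain fatty acids into mitochondria. It had 5 regions, with a promoter and exon region of 500 bases (chromosome 19, 3373101 to 3373600), intron regions at 2.17 and 36.7 kb, a PI region at 10.9 kb and a flanking region in Tesmin.

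**Figure D2:**
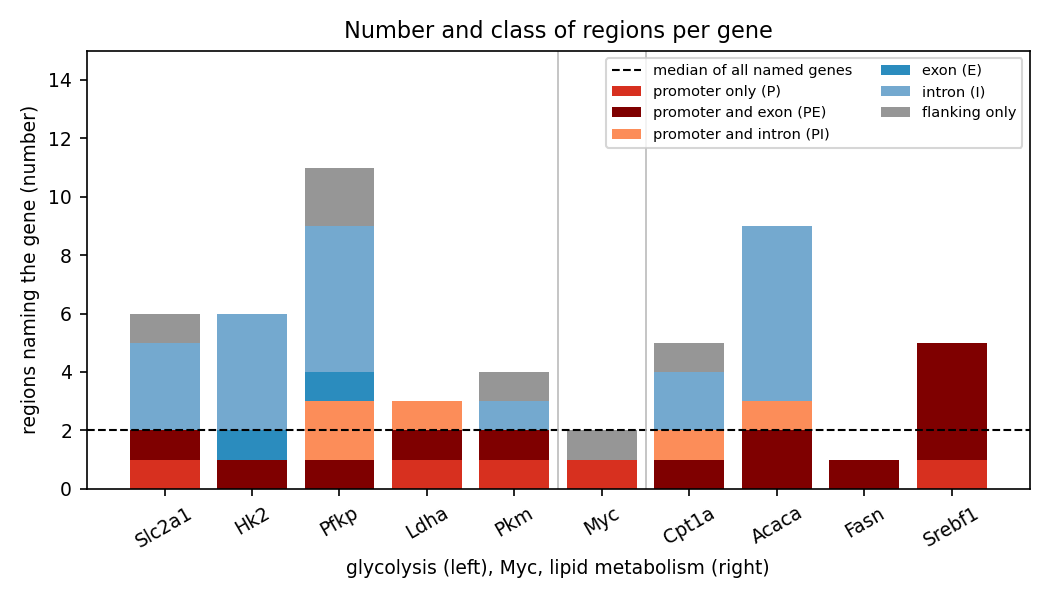
Bars give the number of listed regions that name each gene, split by class, with the glycolysis genes on the left, Myc in the middle and the lipid genes on the right. Pfkp reaches 11 and Fasn 1, and the dashed line marks the median of 2 regions for all genes with a symbol and a region.

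Set beside each other, the glycolysis genes had 3 to 11 regions (median 6) and the lipid genes 1 to 9 (median 5), so the ranges overlapped. Over the 19399 genes the median was 2 regions (quartiles 1 and 4). Fasn had fewer than that median, Myc had as many, and the other 8 genes had more. In the order of the counts, Pfkp and Acaca came first, then Slc2a1 and Hk2, Cpt1a and Srebf1 with 5 each, Pkm, Ldha, Myc and Fasn. Longer genes have room for more regions, and gene length on this build was not used here. Promoter-class regions were 11 of 30 (36.7%, 95% Wilson interval 21.9 to 54.5) at the glycolysis genes and 11 of 20 (55%, 34.2 to 74.2) at the lipid genes, beside 37.1% of the 62536 pairs of a region and a gene with a symbol. With class P alone counted as promoter the order turned, with 10% at the glycolysis and 5% at the lipid genes. The intervals overlap, and they cover counting error only, although the regions of a gene are not independent. Regions of class PE made up 16.7% of the glycolysis regions and 40% of the lipid regions, beside 25.2% of all pairs. Srebf1 gave 4 of the 8 PE regions of the lipid set, and the promoter-class share of that set was 40% without Srebf1, 72.7% without Acaca, 60% without Cpt1a and 52.6% without Fasn. Intron regions were 43.3% and 40%, beside 37% of all pairs. Exon regions outside promoters were 2, in Hk2 and Pfkp (6.67% of the glycolysis regions), and the lipid genes had 0, beside 7.54% of all pairs.

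Region widths ran from 400 to 900 bases at the glycolysis genes (median 600, quartiles 550 and 650) and from 350 to 800 at the lipid genes (median 550, quartiles 450 and 650). All pairs had a median of 600 (quartiles 500 and 650). The number of windows, which sets the width in steps of 50 bases, had medians of 7 and 6, beside 7 for all pairs. Without Acaca the lipid medians were 600 bases and 7 windows, equal to those of the glycolysis set. Within a class, the PE regions of the lipid genes had a median width of 650 bases, equal to that of all pairs, and those of the glycolysis genes 700 bases. The intron regions had medians of 600 bases at the glycolysis genes and 450 at the lipid genes, beside 550 for all pairs, and 6 of the 8 lipid intron regions were those of Acaca.

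**Figure D3:**
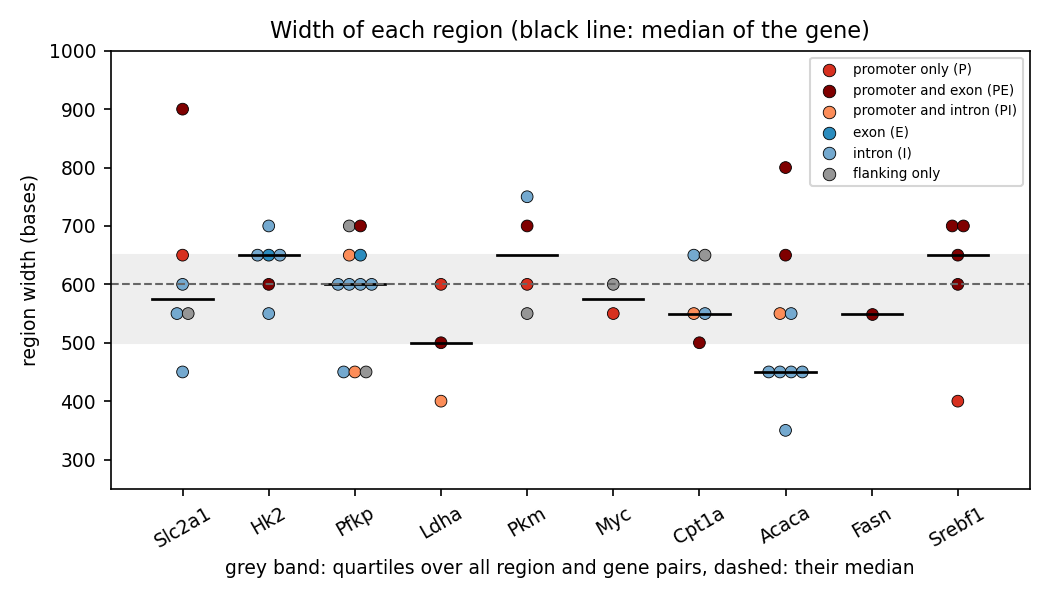
Each point is the width in bases of a listed region, coloured by class, with the median of each gene as a black line. The grey band holds the quartiles of all pairs of a region and a gene (500 and 650) and the dashed line their median of 600. The widest point is the Slc2a1 promoter at 900 bases, and 5 of the 9 Acaca regions lie at 450 bases or less.

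Most of these enzymes have sister forms, some of them used mainly in other tissues, and the sister forms had fewer regions in several families. Ldhb had 1 region and Ldhc, the testis form, had 1 that lay in an intron, beside 3 at Ldha. Cpt1b, the muscle form, was named by 1 flanking region only, and Cpt1c by 3 regions, beside 5 at Cpt1a. Pklr, the liver and red cell form of pyruvate kinase, had 2 regions beside 4 at Pkm. Acacb had 5 beside 9 at Acaca, with 3 of promoter class at each. Pfkl and Pfkm had 2 and 3 beside 11 at Pfkp, of which 1, 3 and 3 were of promoter class. Ldha, Cpt1a and Pkm had more promoter-class regions than the forms named beside them. Longer genes have room for more regions, and gene length was not used. Whether the counts follow the use of a form was not tested. The order was not the same in every family. Slc2a3, another glucose transporter found in leukocytes, had 8 regions beside 6 at Slc2a1, while the liver form Slc2a2 had 3, none of promoter class, and the insulin-responsive form Slc2a4 had 1. Hk1 had 7 beside 6 at Hk2, of which 4 and 1 were of promoter class, and Hk3 had 3. Srebf2, which governs cholesterol genes, had 6 regions, of which 1 was of promoter class, beside 5 of 5 at Srebf1. Mycn had 2 regions, as many as Myc, and Mycl had 1. Of the 10 genes of the list of paralogs, 10 had a region, and 7 had a promoter-class region, with a median of 2 regions. Slc2a3, Hk1, Pfkl, Pfkm, Ldhb and Srebf2 belong to the pathway lists and are not in that count or median.

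**Figure D4:**
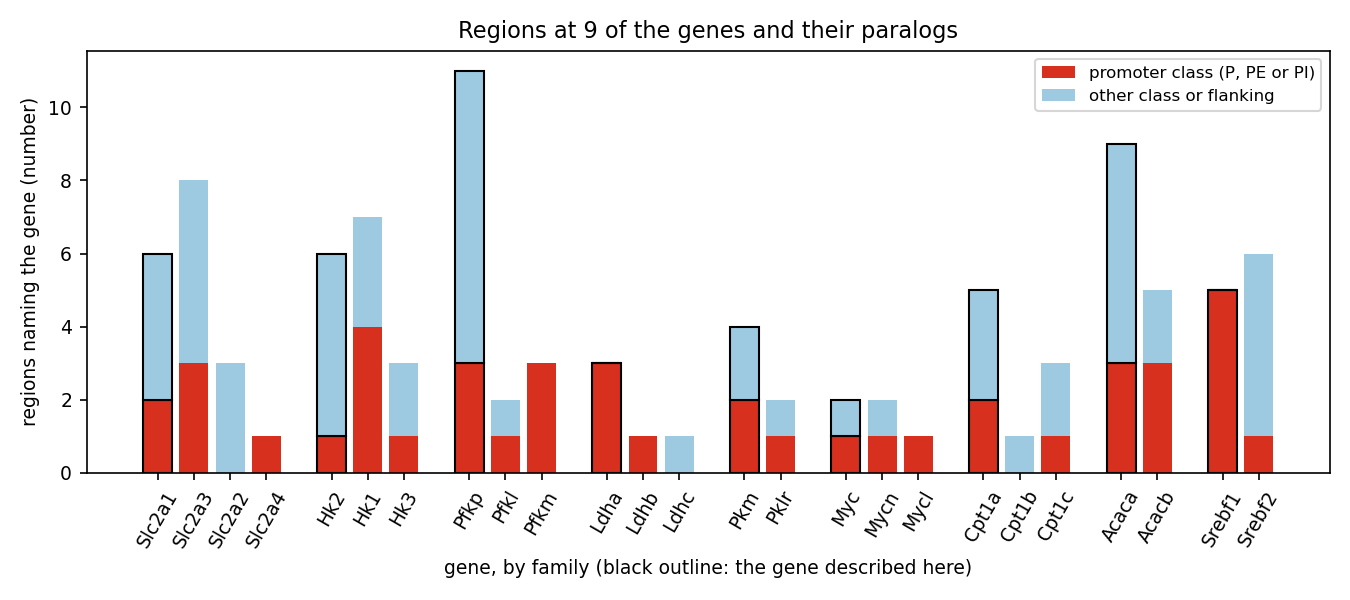
Bars give the number of listed regions naming each gene, grouped by family, with promoter-class regions in red and the rest in blue; black outlines mark the genes described here. Pfkp stands at 11 beside 2 and 3 for its paralogs, whereas Slc2a3 and Hk1 stand above Slc2a1 and Hk2.

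Other genes of the pathways also had regions at their promoters. All 18 further glycolysis genes and all 21 further lipid genes had a promoter-class region, a feature of 81.9% of genes with a symbol and a region. Their medians were 3.5 and 3 regions per gene, beside 2 for all genes. In the glycolysis list Pfkfb3, which makes the activator of phosphofructokinase, had 11 regions, the transcription factor gene Hif1a had 9, and Slc2a3 and Pfkfb4 had 8 each. Gapdh and Ldhb had 1 each, the fewest of that list. In the lipid list the fatty acid elongase genes Elovl5 and Elovl6 had 13 and 10 regions and Acss2, whose product makes acetyl-CoA from acetate, had 7. Insig1, Slc25a20 and Hadhb had 1 each, as Fasn did.

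Which of these genes were listed under a low p-value largely followed the order of the table. The rows run by chromosome in text order (1, 10 to 19, 2 to 9, X and Y), and in each contrast the p-value per window never fell from a row to the next, in 0 cases over the 25375 to 53444 rows with a p-value below 1. Srebf1, Acaca and Fasn, on chromosome 11, stand in rows 9735 to 13005, whereas Slc2a1, Hk2, Ldha and Pkm, on chromosomes 4, 6, 7 and 9, stand in rows 44076 to 62247. In the authors' deposited table, rows of the 10 genes under an adjusted p of 0.05 numbered 2 of 52 in Th1 cells at 24 h, knockout against wild type, beside 12.7% of all rows. They numbered 13 in Tcmp cells (18.7% of all rows), 0 in Teff cells (9.52%) and 15 with both labels pooled at 72 h (22.9%). All of these were rows of Acaca, Srebf1 and Fasn. For Teff against Tcmp they numbered 28 in knockout cells (44% of all rows), with 15 at these genes, 11 at Pfkp and 2 at Myc, and 0 in wild-type cells (2.32%). Under an adjusted p of 0.01 they numbered 0 in Th1 (6.02% of all rows), 1 in Tcmp (13.8%), 0 in Teff (6.93%), 14 in the pooled contrast (18.4%), 17 in knockout Teff against Tcmp (21.8%) and 0 in the wild-type contrast (0.968%). A reading of the table by gene would thus list lipid genes and no glycolysis gene in 3 of the 4 contrasts of knockout against wild type. The p-values per window follow the rows, and the adjusted p-values follow them less strictly. In the Th1 contrast at 24 h, 8368 rows were under an adjusted p of 0.05, and the last of them was row 14853. Nothing about the 10 genes is therefore read from the counts of their rows.

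**Figure D5:**
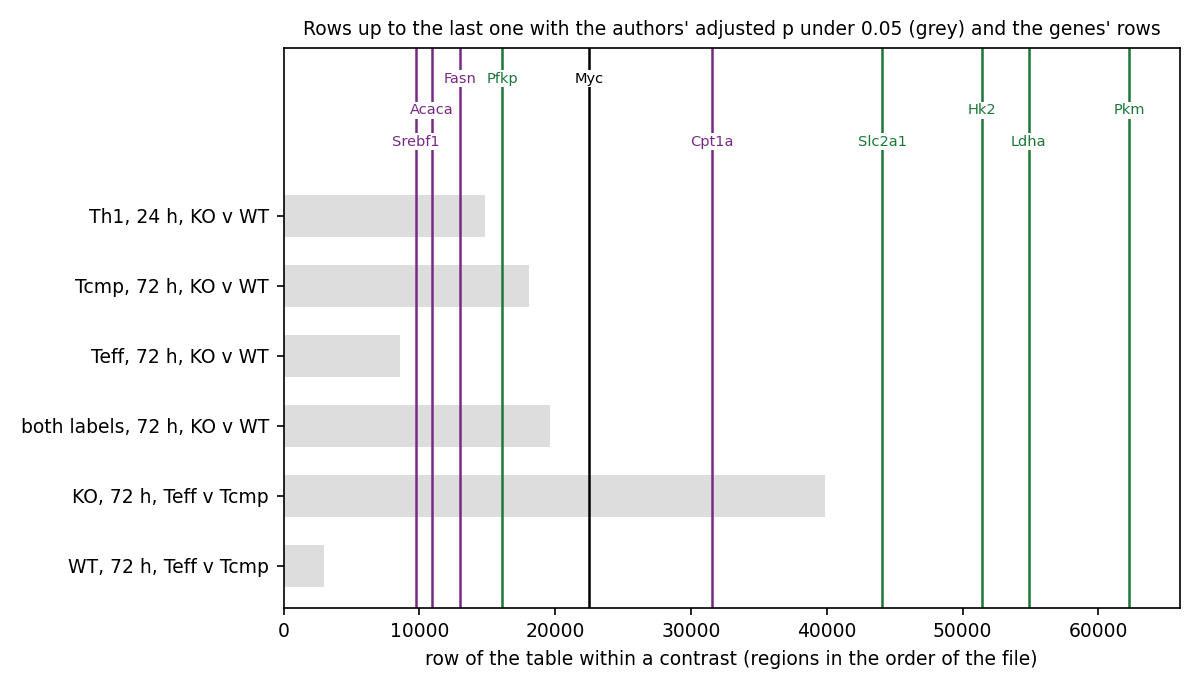
Grey bars run to the last row with the authors' adjusted p under 0.05 in each of the 6 contrasts, and vertical lines mark the rows of the 10 genes (green glycolysis, black Myc, purple lipid). The 3 lipid genes of chromosome 11 lie within several bars, and Slc2a1, Hk2, Ldha and Pkm lie beyond the longest, which ends at row 39878. A row within a bar need not be under 0.05. Pfkp lies within the bars of the Tcmp and pooled knockout contrasts with 0 of 11 rows under it in each.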

How the data were processed

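ATAC-seq was done on 18 samples of mouse CD4 T cells in 6 groups of 3. Trim Galore, BWA, Picard, edgeR and the build GRCm39 are named, per the submitters' processing notes, with no role, order or version. The file used is the authors' deposited table of 395898 rows, 65983 regions under each of 6 contrasts. Per the file headers each row gives position, width, number of windows, a p-value and adjusted p-value, a log2 fold change, and the genes overlapped or beside the region. The sources used here do not give how windows were filtered, merged or annotated. The authors' deposited log2 fold changes were not used. The annotation was split by gene and class with Python 3.11.15 and pandas 2.3.3, and the splitting was checked on a made-up table. Genes without a symbol were left out of the values over all genes. Motifs were searched on both strands in the 250 bases before each start of the RefSeq promoter table (GRCm38.p6). Deposited p-values were counted only by row. The design held no test over genes, since genes are not replicates. All 10 genes are named, as are the 3 pathway or paralog genes with the most regions in each list, ties included; others were named after their values were seen. The genes and lists were chosen with earlier results of these data known. 3 genes of the lists are not reported here and were left out of the list counts. Other processing settings are compared at the end.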

Additional observations from a re-analysis of the deposited data

How the results depend on the processing

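Of 107 alternative values computed, 93 kept the region number or motif count within 1.5 times, the promoter share within its 95% interval, or the median as it was. Counting only regions that overlap the gene, or flanking regions within 2000 bases, left Myc with 1 region in place of 2. Counting only regions of at least 5 windows left Acaca with 4 in place of 9. Counting class P alone as promoter gave shares of 10% for glycolysis and 5% for lipid genes, so that the order of the sets turned. Leaving out Acaca, an alternative chosen after seeing the data as were the other genes left out in turn, moved the lipid medians to 600 bases and 7 windows. An adjusted p of 0.01 moved the rows of the 10 genes listed in the authors' deposited table from 2 to 0 in the Th1 contrast, to 1 from 13 in the Tcmp knockout contrast, and for knockout Teff against Tcmp from 28 to 17. Searching the given strand only lowered the windows with CCAAT from 7 to 4 and those with GGGCGG from 8 to 5. Regions per 10 kb of gene were not run, since the gene table used is of another build. Limits set by depth could not be judged, since the table has no counts. No paired analysis was possible because per-sample values were not in the table, and leaving out a replicate was not possible for the same reason.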
